A study of Mus musculus with 6 samples.

Results

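The Kruppel-like factors described here are 9 mouse genes, Klf2, Klf3, Klf4, Klf5, Klf6, Klf7, Klf9, Klf10 and Klf13, taken by symbol from a table of 30445 genes and read in all 6 libraries. The table holds 17 genes with a Klf symbol in all, and the other 8 are given further on. All 9 listed genes had enough counts to be tested. Messenger RNA was sequenced from induced macrophages (iMac), from MCC, a population that the labels call a myeloid-like cell complex, and from mouse embryonic fibroblasts (MEF), with 2 libraries in each group. Every library is labelled wild type, and the series title gives c-Myc as the factor used to reprogram fibroblasts. No age, treatment, time or vector is given in the sources used here, nor is the way in which the MCC and iMac cells were made. Whether the 2 libraries of a group came from separate cultures is not stated, so the p-values measure only the spread between these libraries, which may be technical.

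Kruppel-like factors are transcription factors whose carboxy-terminal zinc fingers bind GC-rich and CACCC-type DNA. They differ in the amino-terminal region, through which some recruit coactivators and others recruit the CtBP or Sin3 corepressors. In the myeloid lineage of mice Klf4 is needed for the making of inflammatory monocytes, Klf2 restrains the inflammatory activation of macrophages, and Klf6 promotes it. Klf4 is also known as a reprogramming factor that is used together with Myc, Sox2 and the product of Pou5f1 to make pluripotent cells.

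The libraries held 34389817 to 39174367 counts. Myc, the factor of the title, stood at 1022 and 1059.9 counts per 1e+06 counts (CPM) in the iMac libraries, at 823 and 1164 CPM in the MCC libraries and at 70.7 and 63.1 CPM in the MEF libraries, and whether its reads came from an introduced copy was not tested. The library total behind these CPM is the one after TMM scaling. The 10 macrophage markers summed to 22479 and 18502 CPM in iMac, 11770.4 and 11339 CPM in MCC and 25.5 and 50.9 CPM in MEF. The 10 fibroblast markers summed to 14.2 and 10.9 CPM in iMac, 867 and 74.6 CPM in MCC and 19424 and 8110.3 CPM in MEF, so that the groups carried the markers of their labels and MCC library 1 held more fibroblast message than MCC library 2. Summed granulocyte markers reached at most 14.8 CPM in any library (6 of the 8 markers are in the table), lymphocyte markers 1.07 CPM (5 of 8) and epithelial markers 6.23 CPM. Endothelial markers summed to 28.8 to 55.1 CPM in the 6 libraries, erythroid markers (5 of 6) to 1.06 to 12.4 CPM, osteoclast markers to 26.4 to 108 CPM, and smooth muscle markers to 3.23 and 4.13 CPM in iMac, 338 and 18.2 CPM in MCC and 6547 and 1059 CPM in MEF. These are bulk samples, in which fewer cells of a type and less message per cell cannot be told apart.

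Klf4 was far lower in iMac and in MCC than in MEF, and Klf9 and Klf7 were lower as well, while Klf10 and Klf13 were higher. Klf5 was present in MEF and had no counts at all in iMac. Klf3 and Klf6 had log2 fold changes within 0.39 of 0 in every comparison, and Klf2 had its highest level in MCC. In iMac against MEF, 2 of the 9 members rose (Klf10 and Klf13) and 4 fell (Klf4, Klf5, Klf9 and Klf7) at an adjusted p below 0.05, which is 66.7% of the members beside 57.6% of all 18613 genes tested (25.1% higher and 32.4% lower). In MCC against MEF, 2 rose (Klf10 and Klf13) and 4 fell (Klf4, Klf9, Klf7 and Klf6), again 66.7%, beside 53.0% of all genes (23.4% higher and 29.6% lower). Both shares lie near those of all genes. These comparisons share the MEF libraries, so their agreement is not independent. Fewer members were called in iMac against MEF when MEF library 2 or either iMac library was left out. In MCC against MEF fewer were called without any single library except MCC library 1, and more without MCC library 1. Fewer of all genes tested were called in each of these fits.

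In iMac against MCC, edgeR called 0 of the 9 members beside 0.0215% of all genes (4 of 18613, with 0.0107% higher and 0.0107% lower), and 4 members had an unadjusted p below 0.05, as did 18.2% of all genes. DESeq2 called 4 members (Klf2, Klf4, Klf5 and Klf9, all lower in iMac) and limma-voom called 0. Without MCC library 2, edgeR called 1 member, Klf5. The median log2 fold change of the members was -0.19 in iMac against MEF, -0.39 in MCC against MEF and -0.03 in iMac against MCC, beside -0.06, -0.05 and -0.02 over all genes tested. The libraries of the groups did not overlap for 8, 9 and 5 members in these comparisons, beside 82.6%, 80.5% and 55.6% of all genes tested.

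**Figure D1:**
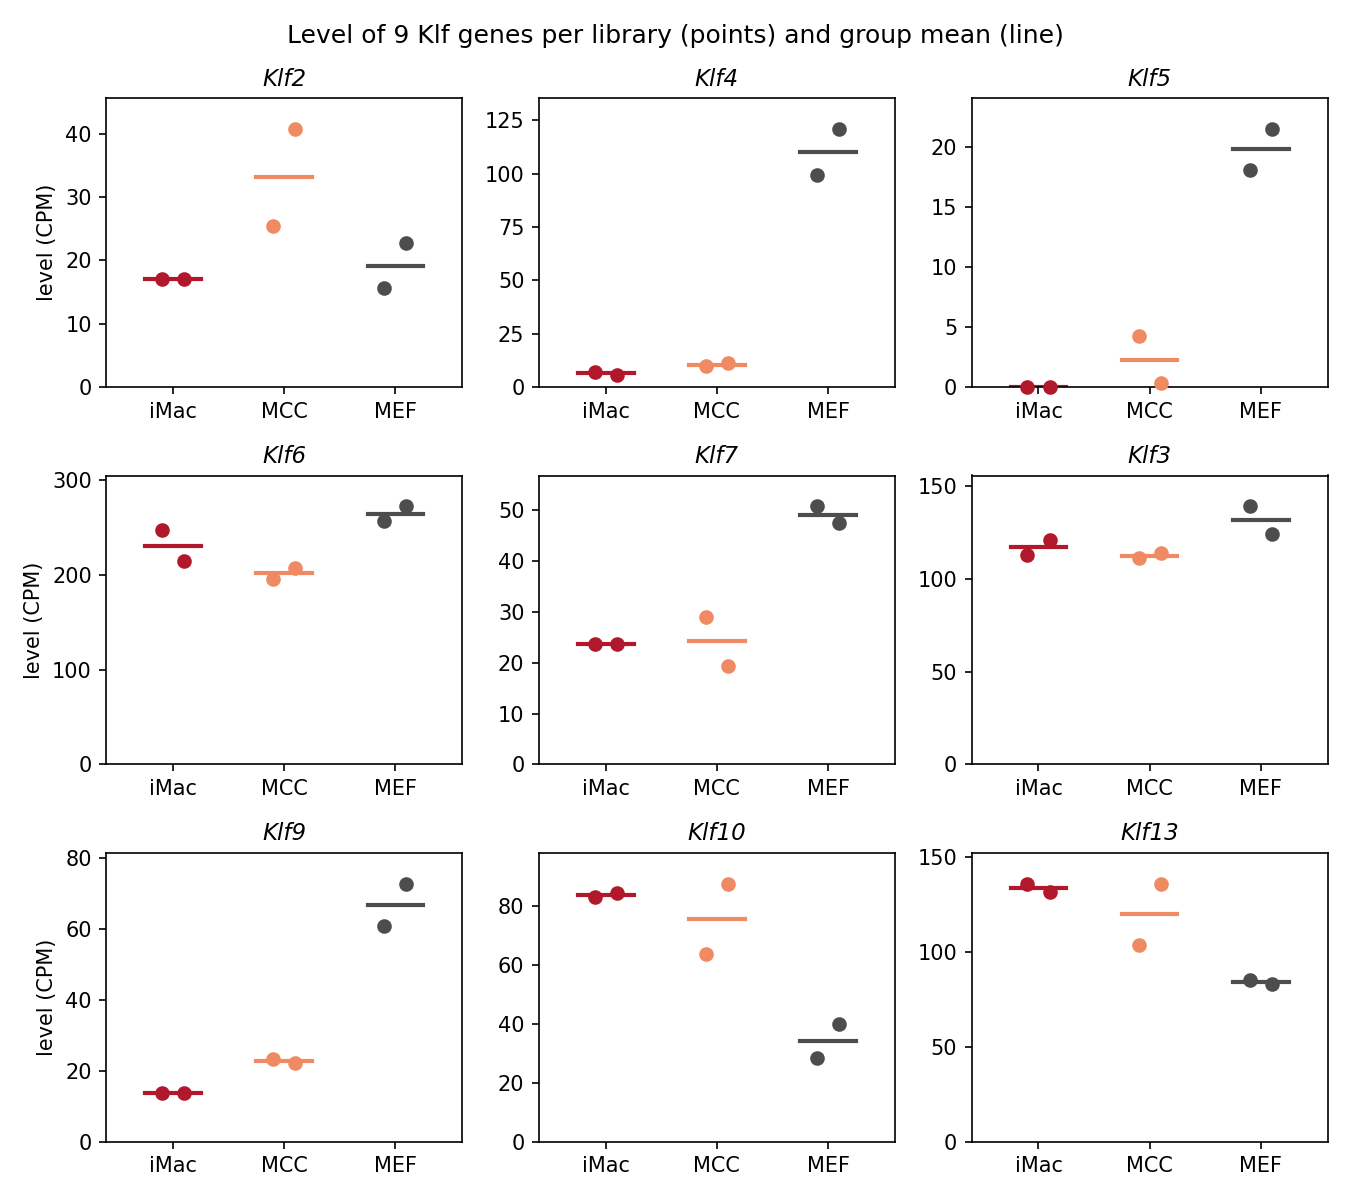
Level of each of the 9 Klf genes in CPM after scaling (vertical axis, starting at 0) in the 2 iMac, 2 MCC and 2 MEF libraries (points), with the group mean as a line. Klf4, Klf5, Klf7 and Klf9 are highest in both MEF libraries, Klf10 and Klf13 are lowest there, and Klf2 is highest in both MCC libraries.

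**Figure D2:**
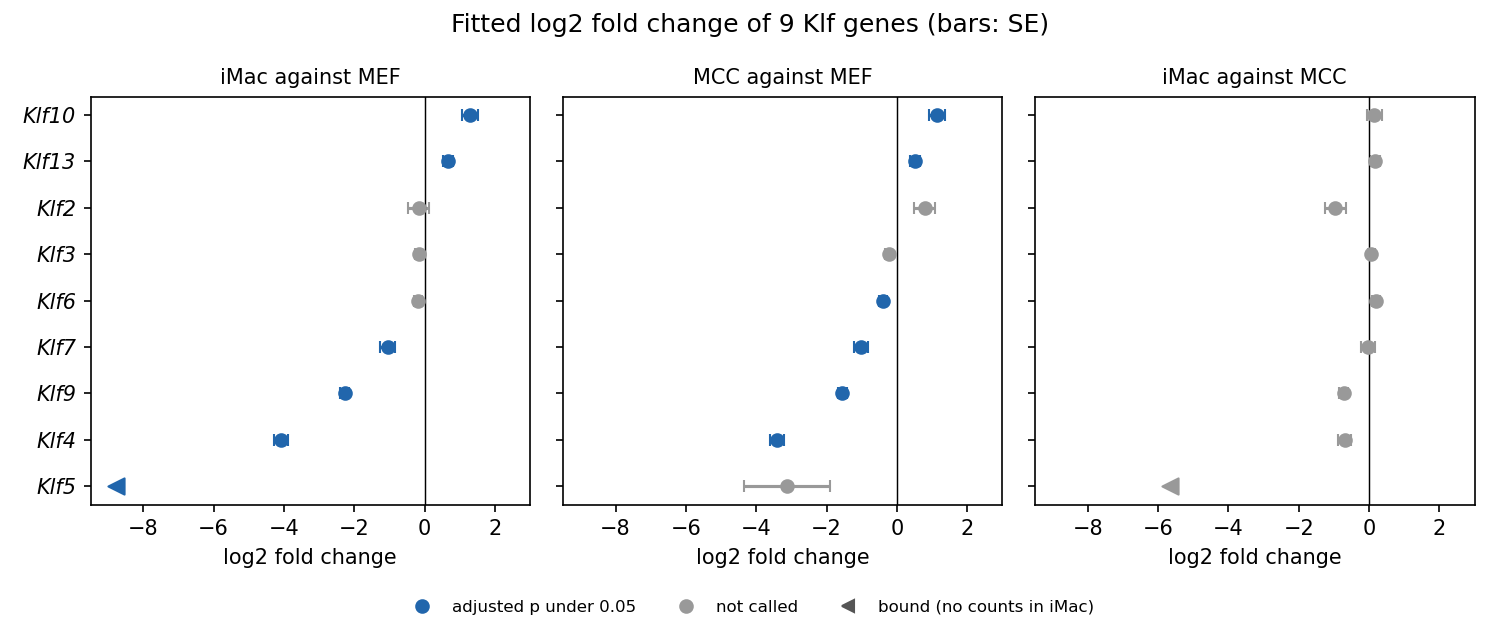
Fitted log2 fold change of each Klf gene (horizontal axis) in the comparisons of iMac with MEF, MCC with MEF and iMac with MCC, with the standard error as bars and genes called at an adjusted p below 0.05 in blue. For Klf5, which has no counts in iMac, the triangle marks the bound set by 3 counts over the group. The calls are 6 in each comparison with MEF and 0 between iMac and MCC.

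Promoters of 7 of the 9 genes, as the 250 bases before the annotated start, were read from RefSeq on GRCm38.p6. Those of Klf5 and Klf10 were not used here. All 7 were rich in G and C, with 59.2% to 78.4% GC and 13 to 32 CpG dinucleotides, beside medians of 52.4% and 6 CpG over 32851 promoters. The 5 printed below are those of the gene with the largest loss among those fitted with counts in every library (Klf4, chr4:55532476-55532725, minus strand), of the most abundant member (Klf6, chr13:5861239-5861488, plus strand), of the gene that was highest in MCC (Klf2, chr8:72318812-72319061, plus strand), of the other strongly lowered gene (Klf9, chr19:23140976-23141225, plus strand) and of a gene that was higher in iMac and MCC (Klf13, chr7:63938916-63939165, minus strand). They are written 5′ to 3′ on the strand of the gene. Capitals mark, on either strand, the GC box GGGCGG, the CACCC box CCACCC, the E-box CACGTG that Myc and Max bind, and the MEF2 box, where any is present. In Klf13 a GC box and a CACCC box overlap, and in Klf4 a pair of GC boxes share a base.
Klf4: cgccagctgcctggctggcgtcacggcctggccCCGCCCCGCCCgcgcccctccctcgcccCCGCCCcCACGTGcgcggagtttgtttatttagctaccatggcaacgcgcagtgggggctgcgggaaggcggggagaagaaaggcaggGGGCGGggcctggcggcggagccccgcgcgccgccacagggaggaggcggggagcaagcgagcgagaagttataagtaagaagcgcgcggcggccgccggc
Klf6: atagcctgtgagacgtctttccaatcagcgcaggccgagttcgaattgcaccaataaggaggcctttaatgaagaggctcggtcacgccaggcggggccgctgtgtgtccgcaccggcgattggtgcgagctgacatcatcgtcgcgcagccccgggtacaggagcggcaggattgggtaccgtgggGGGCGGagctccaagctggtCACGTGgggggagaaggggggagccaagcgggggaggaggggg
Klf2: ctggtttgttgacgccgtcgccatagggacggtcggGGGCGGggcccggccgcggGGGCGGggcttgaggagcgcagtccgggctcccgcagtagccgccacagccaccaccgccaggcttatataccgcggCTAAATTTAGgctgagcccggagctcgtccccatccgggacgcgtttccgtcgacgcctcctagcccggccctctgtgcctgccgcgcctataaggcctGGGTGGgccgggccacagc
Klf9: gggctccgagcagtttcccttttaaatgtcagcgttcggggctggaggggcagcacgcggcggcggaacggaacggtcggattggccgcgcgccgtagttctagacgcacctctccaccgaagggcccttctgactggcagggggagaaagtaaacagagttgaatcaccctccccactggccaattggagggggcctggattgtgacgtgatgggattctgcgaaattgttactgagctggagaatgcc
Klf13: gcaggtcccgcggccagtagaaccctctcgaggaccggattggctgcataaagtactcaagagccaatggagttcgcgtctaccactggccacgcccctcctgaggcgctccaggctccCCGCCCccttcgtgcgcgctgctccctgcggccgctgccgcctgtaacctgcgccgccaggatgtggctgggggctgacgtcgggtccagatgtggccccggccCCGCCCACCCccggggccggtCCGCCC

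The E-box CACGTG was found in the windows of Klf4 and Klf6, 2 of the 7 members with a promoter, beside 6.02% of all promoters. The MEF2 box was found in the window of Klf2 and in none of the other 6, beside 2.92% of all promoters. GC boxes were found in 6 of the 7 windows (all but that of Klf9), beside 32.7%, and CACCC boxes in 4 (Klf2, Klf3, Klf7 and Klf13), beside 28.1%. CCAAT boxes, searched as CCAAT, were found in Klf6, Klf9 and Klf13, beside 33.8%, and the AP-1 site TGANTCA in Klf9, beside 6.75%. The cyclic AMP element TGACGTCA (1.55% of all promoters), the PU box GAGGAA (23.3%) and the CArG box (1.47%) had no match in the 7 windows. A match is a description of these letters and no evidence of binding.

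Klf4 was the member with the largest fitted loss among those with counts in every library. It lies at chr4:55527143-55532466 on the minus strand of GRCm38. It had 7.17 and 5.73 CPM in the iMac libraries, 9.6 and 11.2 CPM in the MCC libraries and 99.6 and 121 CPM in the MEF libraries. The iMac libraries were lowest, the MCC libraries slightly above them and the MEF libraries far above both, with no overlap between any of the groups. Klf4 fell by 4.09 ± 0.20 on the log2 scale (SE, adjusted p = 0.000245) in iMac against MEF and by 3.41 ± 0.19 (adjusted p = 0.000453) in MCC against MEF. Both calls held without any single library, with log2 fold changes of -4.25 to -3.92 in iMac and -3.53 to -3.21 in MCC. Between iMac and MCC the log2 fold change was -0.69 ± 0.18, which did not pass the test (adjusted p = 0.184). The remaining message was still counted by 240 and 190 reads in iMac and 369 and 417 in MCC, beside 3674 and 4683 in MEF.

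Klf5 promotes proliferation in epithelia and in smooth muscle, and it lies at chr14:99298691-99315036 on the plus strand. It had 0 counts in both iMac libraries, 163 and 11 counts in the MCC libraries and 666 and 833 counts in the MEF libraries. On the CPM scale these were 0 and 0 in iMac, 4.24 and 0.294 in MCC and 18.1 and 21.5 in MEF. On the scale log2(CPM + 0.5), the MCC libraries differed from each other by 2.58, a gap that 1.77% of the genes tested exceeded. A count of 0 in both libraries, set at a floor of 3 counts over the group, makes Klf5 at least 439.9-fold lower in iMac than in MEF (adjusted p = 0.015). This call was lost without MEF library 2 (adjusted p = 0.0551), iMac library 1 (0.0591) or iMac library 2 (0.0593). In MCC against MEF the log2 fold change of -3.12 ± 1.22 did not pass (adjusted p = 0.0977). It was -6.04 without MCC library 1 (adjusted p = 0.00177) and -2.10 without MCC library 2 (adjusted p = 0.012), and both of these passed. Against MCC, Klf5 was at least 51.0-fold lower in iMac, which did not pass the test (adjusted p = 0.216) unless MCC library 2 was left out (adjusted p = 0.00532).

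Klf5 and the fibroblast markers were both higher in MCC library 1 than in MCC library 2. Klf5 stood at 21.5% of its MEF mean in MCC library 1 and at 1.49% in MCC library 2. The 10 fibroblast markers had a median of 4.53% of their MEF means in MCC library 1 (1.63% to 10.4%) and of 0.593% in MCC library 2 (0.07% to 1.59%). Klf4, at 8.72% in MCC library 1 and 10.1% in MCC library 2, did not follow that order. Klf9 stood at 35.2% in MCC library 1 and 33.4% in MCC library 2, and Klf7 at 59.0% and 39.5% in the same order. In MCC library 2 the percentages of Klf4, Klf7 and Klf9 lay above that of every fibroblast marker, and that of Klf5 lay within their range. In MCC library 1 those of Klf5, Klf7 and Klf9 lay above every marker, and that of Klf4 lay within their range. In iMac, where the median of the markers was 0.112% and 0.0335% of MEF, Klf4 kept 6.51% and 5.2%, Klf9 20.9% and 20.7% and Klf7 48.4% and 48.1%. All 10 fibroblast markers had counts in both MCC libraries, and 2 of them were at 0 counts in iMac library 2. The part of remaining fibroblasts in the MCC level of Klf5 was not tested.

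**Figure D3:**
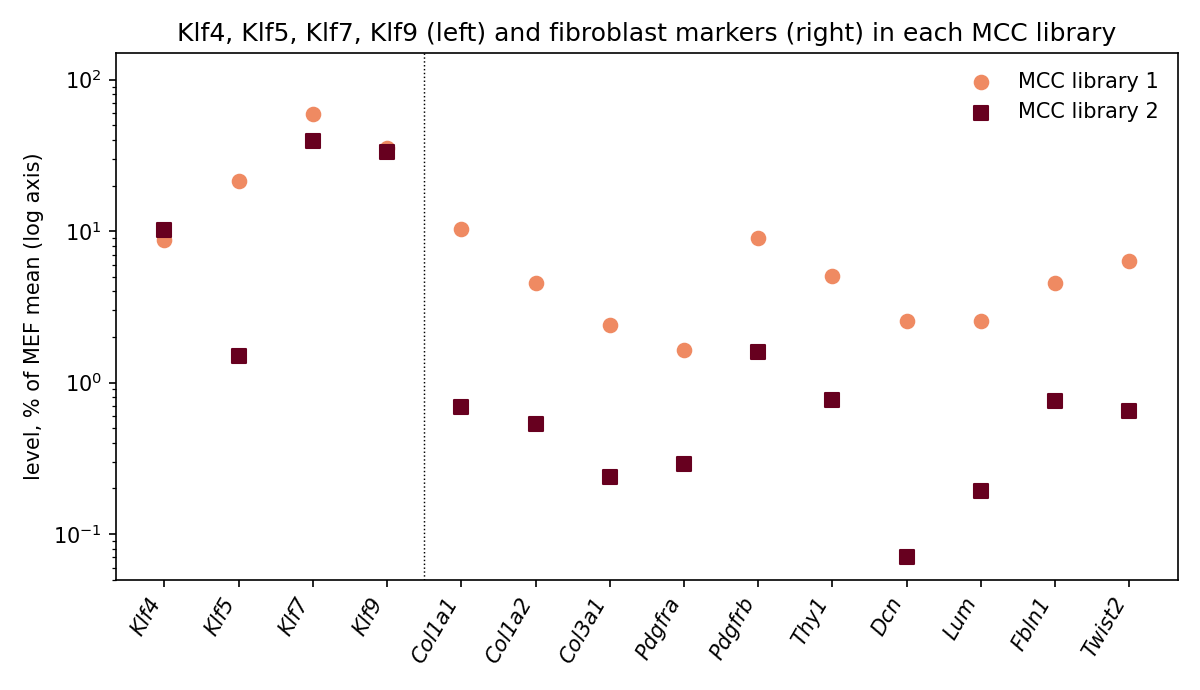
Level in MCC library 1 (circles) and MCC library 2 (squares) as a percentage of the mean of the MEF libraries (vertical axis, log scale) for Klf4, Klf5, Klf7 and Klf9 on the left and for 10 fibroblast markers on the right. In MCC library 2 the fibroblast markers lie between 0.07% and 1.59%, Klf5 lies at 1.49% and Klf4, Klf7 and Klf9 lie at 10.1%, 39.5% and 33.4%. In MCC library 1 the markers lie between 1.63% and 10.4%, Klf4 within that range at 8.72% and Klf5 above it at 21.5%.

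Klf2 keeps T cells and endothelium quiescent and restrains macrophage activation, and it lies at chr8:72319033-72321656 on the plus strand. It had 17.0 and 17.1 CPM in iMac, 25.5 and 40.8 CPM in MCC and 15.6 and 22.7 CPM in MEF. Both MCC libraries were above all others, and the iMac libraries lay between the MEF libraries. In iMac against MEF the log2 fold change was -0.17 ± 0.29 (adjusted p = 0.652), and it was 0.11 without MEF library 2. In MCC against MEF it was 0.79 ± 0.29, which did not pass (adjusted p = 0.0709). Leaving out MEF library 2 (log2 fold change 1.13, adjusted p = 0.0465) or MCC library 1 (1.11, adjusted p = 0.0227) brought it past the threshold. Set against MCC, iMac gave -0.96 ± 0.29 (adjusted p = 0.219), and DESeq2 alone of the tools run called it (adjusted p = 0.0366).

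Klf6, an injury-induced factor that many cell types express, lies at chr13:5861482-5870394 on the plus strand. It had 247 and 214 CPM in iMac, 196 and 207 CPM in MCC and 257 and 272 CPM in MEF. The MEF libraries were above all others by a small margin. The log2 fold change was -0.19 ± 0.11 in iMac against MEF (adjusted p = 0.176), where DESeq2 called it at -0.26. In MCC against MEF it was -0.39 ± 0.11 (adjusted p = 0.0316). That call was lost when any of the 6 libraries was left out, with log2 fold changes of -0.42 to -0.29 and adjusted p-values of 0.0505 to 0.18. The log2 fold change of Klf6 in iMac against MCC was 0.20 ± 0.11 (adjusted p = 0.387).

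Klf7, known for its part in the outgrowth of nerve cells, lies at chr1:64029447-64122282 on the minus strand. It had 23.7 and 23.6 CPM in iMac, 29.0 and 19.4 CPM in MCC and 50.7 and 47.5 CPM in MEF. The MEF libraries were above the rest, and the iMac libraries lay between the MCC libraries. Klf7 fell by 1.05 ± 0.21 on the log2 scale in iMac against MEF (adjusted p = 0.0109) and by 1.02 ± 0.21 in MCC against MEF (adjusted p = 0.0137). Leaving out iMac library 1 or iMac library 2 ended the call in iMac (adjusted p = 0.0738 and 0.0756), and leaving out MEF library 1 or MEF library 2 ended that in MCC (0.0537 and 0.0693). Without MCC library 2 the MCC value was -0.64 and still passed (adjusted p = 0.0288). The value for iMac against MCC was a log2 fold change of -0.03 ± 0.21 (adjusted p = 0.97), and it was 0.26 without MCC library 1. In the GENCODE annotation 39.4% of the exonic bases of Klf7 are shared with the antisense genes Gm13748 and Gm26649. No source used here gives the strand setting of the counting, so it is not known how reads from the shared bases were counted.

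Klf3, which represses its targets through CtBP, lies at chr5:64803388-64832901 on the plus strand. It had 113 and 121 CPM in iMac, 111 and 114 CPM in MCC and 139 and 124 CPM in MEF. The levels were close in all 6 libraries, with the MEF libraries on top. The log2 fold changes were -0.17 ± 0.10 in iMac against MEF (adjusted p = 0.19), -0.23 ± 0.10 in MCC against MEF (adjusted p = 0.103) and 0.06 ± 0.10 in iMac against MCC (adjusted p = 0.795). DESeq2 called the MCC value, at -0.30. The value of iMac against MCC was -0.02 without MEF library 2, -0.06 without MCC library 2 and -0.08 under scaling by library totals, so it has no stable sign. Of the exonic bases of Klf3, 3.59% are shared with the antisense gene Gm20033.

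Klf9, a glucocorticoid- and thyroid hormone-induced factor that recruits Sin3, lies at chr19:23141226-23168134 on the plus strand. It had 13.9 and 13.8 CPM in iMac, 23.4 and 22.2 CPM in MCC and 60.7 and 72.6 CPM in MEF. The groups formed separate steps, with iMac lowest and MEF highest. Klf9 fell by 2.27 ± 0.13 on the log2 scale in iMac against MEF (adjusted p = 0.000425) and by 1.55 ± 0.13 in MCC against MEF (adjusted p = 0.00134). Without any single library these values ranged over -2.38 to -2.16 and -1.66 to -1.35 and stayed past the threshold. The log2 fold change of Klf9 in iMac against MCC, -0.72 ± 0.13, did not pass the test. DESeq2 called that difference (-0.71), as did edgeR on the iMac and MCC libraries alone (-0.73, adjusted p = 0.0246).

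Klf10, first described as a gene induced early by TGF-beta, also recruits Sin3 and lies at chr15:38291463-38300706 on the minus strand. It had 83.1 and 84.5 CPM in iMac, 63.5 and 87.4 CPM in MCC and 28.5 and 40.0 CPM in MEF. All iMac and MCC libraries were above both MEF libraries. Klf10 rose by 1.29 ± 0.23 on the log2 scale in iMac against MEF (adjusted p = 0.00766) and by 1.14 ± 0.23 in MCC against MEF (adjusted p = 0.0127). Without any single library the values ran over 1.08 to 1.53 in iMac and 0.92 to 1.45 in MCC, and all passed. For Klf10 the log2 fold change in iMac against MCC was 0.15 ± 0.22 (adjusted p = 0.759), and it was -0.09 without MCC library 1.

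Klf13, which in T cells activates the chemokine gene Ccl5, lies at chr7:63886351-63938915 on the minus strand. It had 136 and 132 CPM in iMac, 104 and 136 CPM in MCC and 85.2 and 83.3 CPM in MEF. Every iMac and MCC library was above both MEF libraries. Klf13 rose by 0.67 ± 0.14 on the log2 scale in iMac against MEF (adjusted p = 0.0138) and by 0.51 ± 0.14 in MCC against MEF (adjusted p = 0.0343). The iMac call was lost without iMac library 1 (0.66, adjusted p = 0.0807) or iMac library 2 (0.71, adjusted p = 0.0716). The MCC call held without MCC library 1 (0.70) and was lost without any of the other 5 libraries, MEF libraries included, with adjusted p-values of 0.0531 to 0.0897. Between iMac and MCC the log2 fold change was 0.16 ± 0.14 (adjusted p = 0.584), and it was -0.05 without MCC library 1.

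The make-up of the family message was compared on a length-scaled level, TPM, which is the count of a gene over its exonic length, scaled to the same total in every library. The 9 members summed to 359.7 and 347 TPM in iMac, 367 and 424 TPM in MCC and 536 and 667 TPM in MEF. The sum was lower in every iMac and MCC library than in either MEF library, and no test was made of it. Unlike the CPM, the TPM were not TMM-scaled, and they set iMac and MCC lower against MEF. Klf3 averaged 117 CPM in iMac, 113 CPM in MCC and 132 CPM in MEF, but 31.2, 33.2 and 43.4 TPM. The size of the lower sum thus depends on the scale, while the shares within a library do not. Klf6 was the most abundant member in every library, with 46.3% and 42.7% of the summed TPM in iMac, 40.7% and 36.5% in MCC and 38.3% and 36.3% in MEF. Behind Klf6, Klf4 held 1.93% and 1.65% in iMac, 2.87% and 2.84% in MCC and 21.4% and 23.2% in MEF, where it ranked second in both libraries.

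The Sin3-binding members Klf10 and Klf13 held larger shares in iMac and MCC, and Klf9 a smaller one. Klf10 held 16.3% and 17.7% of the summed TPM in iMac, 13.8% and 16.2% in MCC and 4.48% and 5.62% in MEF. Klf13 held 14.9% and 15.3% in iMac, 12.6% and 14.0% in MCC and 7.42% and 6.49% in MEF. The share of Klf2 was 7.57% and 8.09% in iMac, 12.6% and 17.1% in MCC and 5.53% and 7.21% in MEF. Klf2 thus had the second largest share of MCC library 2, at 72.7 TPM beside 68.8 TPM of Klf10. Klf9 held 2.38% and 2.51% in iMac, 4.44% and 3.58% in MCC and 8.28% and 8.84% in MEF. The remaining members each held at most 9.46%: Klf3 ranged over 6.49% to 9.46%, Klf7 over 1.85% to 4.1% and Klf5 over 0% to 2.42% in the 6 libraries. These shares depend on the length used, here all exonic bases. With the longest transcript instead, Klf6 held 38.1% in iMac, 33.5% in MCC and 33.6% in MEF on average. On that length Klf2 held 14.3% of MCC library 2, below Klf10 at 18.6%. Klf3 then ranged over 12.2% to 16.7% in the 6 libraries, and it was above Klf13 in both iMac libraries.

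**Figure D4:**
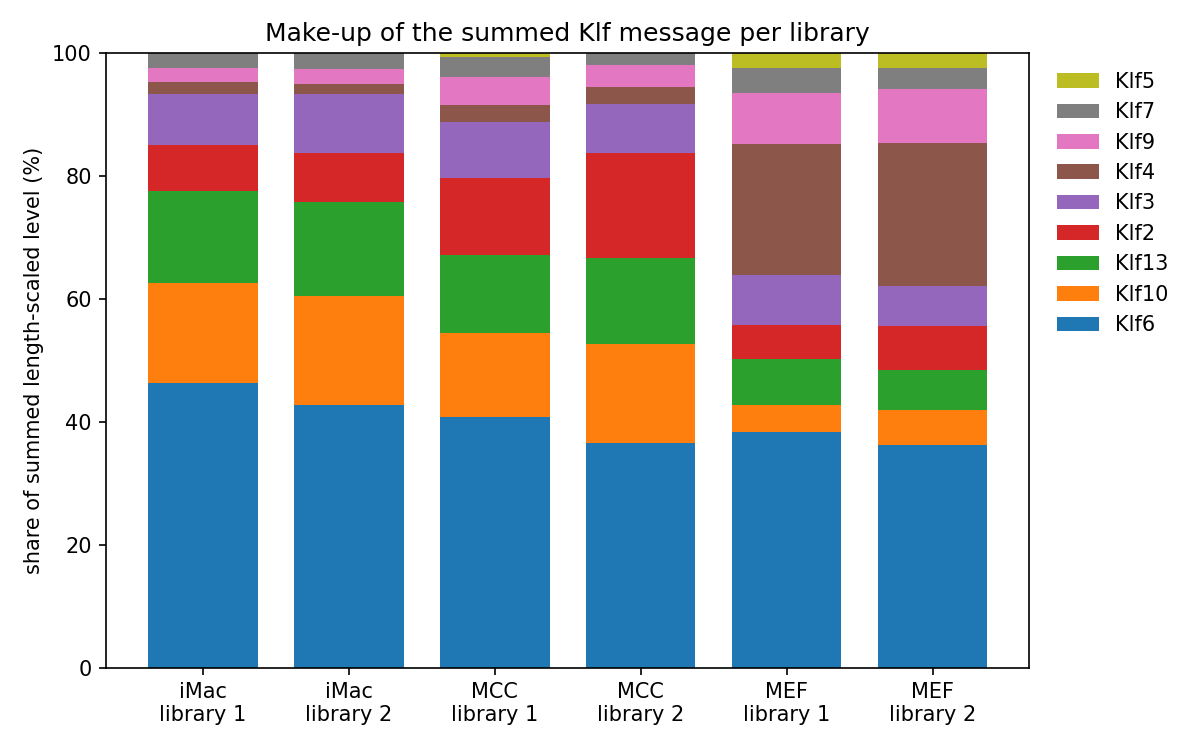
Share of the summed length-scaled level (TPM) of the 9 Klf genes held by each gene (stacked bars, percent) in each iMac, MCC and MEF library. Klf6 is the largest part of every bar, and Klf4 takes 21.4% and 23.2% in the MEF libraries and at most 2.87% in the others.

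The spread within groups differed between members. The log2 differences between libraries given here are those of log2(CPM + 0.5). In MCC, Klf2 was lower in library 1 by a log2 difference of 0.67, which 11.9% of genes tested exceeded, and Klf7 was higher there by 0.57, which 15.1% exceeded. Klf10 and Klf13 were also lower in MCC library 1, by 0.46 and 0.39. In iMac every member except Klf4 (0.30) and Klf6 (0.20) differed by 0.11 or less between the libraries. In MEF, Klf2 was lower in library 1 than in library 2 by a log2 difference of 0.53 and Klf10 by 0.48, gaps that 21.4% and 24.8% of the genes tested exceeded. Klf4, Klf9 and Klf5 were lower there too, by 0.28, 0.26 and 0.24, which 45.8%, 48.8% and 50.6% exceeded, so these gaps are ordinary ones. Of the 18 immediate early genes, which respond within minutes to serum or handling, 15 were also higher in MEF library 2. The other 3 (Fosl2, Ier3 and Btg2) were higher in MEF library 1. The share of all genes tested that were higher in MEF library 2 was not computed, so this count has no background beside it. Fosl2 stood at 253 CPM in MEF library 1 and 132 CPM in MEF library 2. In the other direction, Fos stood at 24.5 CPM in MEF library 1 and 378 CPM in MEF library 2, Fosb at 3.01 and 404 CPM, and Atf3 at 5.26 and 24.4 CPM. Their part in the MEF levels of these members was not tested.

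By the root mean square difference of centred log2(CPM + 0.5) over the 6 libraries, among 8929 candidate genes, the genes most like each member in pattern were as follows. Klf4 was nearest to Srgap3 (0.202) and Csrp2 (0.237), Klf5 to Ccbe1 (0.169) and Atoh8 (0.196), and Klf9 to Sc5d (0.096) and Ust (0.106). Srgap3 averaged 3.12 CPM in iMac, 6.44 CPM in MCC and 58.8 CPM in MEF, and Ccbe1 averaged 0.18 CPM in iMac, 3.35 CPM in MCC and 22.2 CPM in MEF. Klf2 was nearest to Fanca (0.155) and Kif22 (0.171), genes of DNA repair and of mitosis, which were highest in MCC as well. Fanca averaged 11.4 CPM in iMac, 25.1 CPM in MCC and 15.8 CPM in MEF, and Kif22 averaged 27.1 CPM in iMac, 46.5 CPM in MCC and 30.2 CPM in MEF. Klf7 was nearest to D5Ertd579e (0.069) and Chsy1 (0.082), Klf10 to Casp2 (0.055) and Fam76b (0.062), and Klf13 to Pip4p1 (0.045) and Wasf2 (0.046). Klf3 and Klf6, whose levels changed least, were nearest to Tmem128 (0.025) and Lrrfip1 (0.031), and to Efcab14 (0.036) and Wbp2 (0.042). These are descriptions of 6 libraries and carry no test.

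Among the other 8 Klf genes, 5 were tested. In iMac against MEF 1 rose and 3 fell, and in MCC against MEF 0 rose and 2 fell. Of all genes tested, 57.6% were called in iMac against MEF (25.1% higher and 32.4% lower). In MCC against MEF 53.0% were (23.4% higher and 29.6% lower). The counts of this list and of every list below stand beside these shares, and no list was tested against them. The median log2 fold changes of these other Klf genes were -0.47 and -0.30. Klf12, a CtBP-binding repressor, had 0.0896 and 0.0302 CPM in iMac, 0.312 and 0.0535 CPM in MCC and 12.1 and 13.4 CPM in MEF. It fell by 7.65 ± 0.87 on the log2 scale in iMac (adjusted p = 0.00228) and fell by 6.09 ± 0.76 in MCC (adjusted p = 0.0036). Klf15, a glucocorticoid-induced regulator of metabolism, had 0 and 2 counts in iMac, 6 and 8 in MCC and 136 and 632 in MEF, where library 2 was again above library 1. It was 338-fold lower in iMac (95% counting interval 93.3 to 2796, adjusted p = 0.00528) and fell by 5.73 ± 1.02 on the log2 scale in MCC (adjusted p = 0.00953). Both falls of Klf12 and Klf15 held without any single library.

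Klf11, the closest relative of Klf10, had 31.4 and 35.3 CPM in iMac, 20.3 and 27.7 CPM in MCC and 10.4 and 18.1 CPM in MEF. Its log2 fold change was 1.23 ± 0.32 in iMac (adjusted p = 0.0231) and 0.75 ± 0.31 in MCC (adjusted p = 0.0953). The iMac call was lost without iMac library 1 (adjusted p = 0.0791) or iMac library 2 (0.104), and the MCC value passed without MEF library 2 (1.26, adjusted p = 0.0187). Klf16 fell by 0.47 ± 0.14 in iMac (adjusted p = 0.0347), a call lost without MEF library 1, iMac library 1 or iMac library 2 (adjusted p = 0.1, 0.191 and 0.157). Klf8 had 2.99 to 5.67 CPM in all 6 libraries and did not pass a test. Klf1, the erythroid member, had 2 to 6 counts per library, Klf14 had 19 and 7 counts in MEF and 0 elsewhere, and Klf17 had 2 counts in 1 MEF library and 0 elsewhere. These genes were not tested. Without iMac library 1 or iMac library 2, 2 of the other Klf genes were called in iMac against MEF.

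The Sp factors share the zinc fingers of the Kruppel-like factors and bind GC boxes. Of 7 tested, 0 rose and 2 fell in iMac against MEF and 0 rose and 1 fell in MCC against MEF, with 3 at an unadjusted p below 0.05 in each and medians of -0.49 and -0.63. The most highly expressed members Sp1, Sp2, Sp3 and Sp4 had log2 fold changes of 0.14 ± 0.10, 0.34 ± 0.17, 0.16 ± 0.13 and -0.49 ± 0.22 in iMac and of 0.14 ± 0.10, 0.23 ± 0.17, 0.03 ± 0.13 and -0.63 ± 0.22 in MCC, with adjusted p-values of 0.0609 to 0.845. The genes that fell, named here after their values were seen, were Sp8 and Sp9 in iMac and Sp9 in MCC. Both are factors of limb and brain development, with no counts in iMac and at most 3.63 CPM in any library. The Sp count in iMac was 0 without MEF library 2, 1 without MEF library 1, iMac library 1 or iMac library 2, and 4 without MCC library 1 or MCC library 2. In MCC it was 3 without MCC library 1 and 0 without any of the other libraries.

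Of the 14 corepressor and acetyltransferase genes through which these factors act, 1 rose and 5 fell in iMac against MEF, and 1 rose and 6 fell in MCC against MEF, with median log2 fold changes of -0.14 and -0.25. Hdac2, a histone deacetylase of the Sin3 complex, fell by 0.92 ± 0.08 on the log2 scale in iMac (adjusted p = 0.00119) and by 0.74 ± 0.08 in MCC (adjusted p = 0.00249). Hdac1 fell by 0.84 ± 0.08 in iMac (adjusted p = 0.00164) and by 0.59 ± 0.08 in MCC (adjusted p = 0.00518), the MCC call being lost without MCC library 2 (adjusted p = 0.0597). Ep300, an acetyltransferase that acts as a coactivator, rose by 0.71 ± 0.11 in iMac (adjusted p = 0.00503). In MCC it rose by 0.43 ± 0.11 (adjusted p = 0.0231), a call lost when MEF library 1, MCC library 2 or either iMac library was left out (adjusted p = 0.0534 to 0.0624). Ctbp2, the CtBP corepressor, fell by 0.60 ± 0.14 in iMac (adjusted p = 0.0158) and by 0.57 ± 0.14 in MCC (adjusted p = 0.0213). The iMac call was lost without either iMac library (adjusted p = 0.0845 and 0.112), and the MCC call without MEF library 2, either MCC library or either iMac library (0.0617 to 0.128). The count of called genes in iMac was 3 without either iMac library. In MCC it was 4 when MEF library 1 was left out, 3 and 1 when MCC library 1 and MCC library 2 were, and 2 when either iMac library was.

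Among genes of the ERK5 and MEF2 pathway, which switches on Klf2 and Klf4 in endothelium, 6 of 9 tested rose and 1 fell in iMac against MEF, and 5 rose and 1 fell in MCC against MEF, with medians of 0.71 and 0.29. Mef2c had 392 and 439 CPM in iMac, 231 and 314 CPM in MCC and 16.5 and 14.7 CPM in MEF, a rise of 4.73 ± 0.20 on the log2 scale in iMac (adjusted p = 0.000187) and of 4.13 ± 0.20 in MCC (adjusted p = 0.00031). Hdac7, a class II deacetylase that binds MEF2 factors, fell by 2.71 ± 0.28 in iMac (adjusted p = 0.00179) and by 2.33 ± 0.27 in MCC (adjusted p = 0.00312). Hdac5, of the same class, rose by 1.28 ± 0.09 in iMac (adjusted p = 0.000717) and by 0.75 ± 0.09 in MCC (adjusted p = 0.00342). Mef2d rose by 0.78 ± 0.10 in iMac (adjusted p = 0.00327) and by 0.61 ± 0.10 in MCC (adjusted p = 0.00753), with 8.87% of its exonic bases shared with antisense genes. The calls of Mef2c, Hdac7, Hdac5 and Mef2d held without any single library. The list as a whole was less stable. Fewer of its genes passed as higher in iMac without MEF library 2 or either iMac library. In MCC fewer did so whichever library was left out. Of all genes tested, 25.1% were higher in iMac against MEF and 23.4% in MCC against MEF.

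The ubiquitin ligases known to act on Klf proteins moved in both directions. Of 9 tested, 3 rose and 5 fell in iMac against MEF, and 1 rose and 6 fell in MCC against MEF, with medians of -0.44 and -0.50. Wwp1, a ligase that marks Klf2 and Klf5 for degradation, had 918 and 820 CPM in iMac, 309 and 335 CPM in MCC and 90.7 and 94.7 CPM in MEF. It formed separate steps in the order opposite to Klf4 and Klf9, and it rose by 3.23 ± 0.12 on the log2 scale in iMac (adjusted p = 0.000127) and by 1.80 ± 0.11 in MCC (adjusted p = 0.000605). The difference between iMac and MCC, 1.43 ± 0.11 on the log2 scale, missed the threshold (adjusted p = 0.0631) except without MCC library 2 (1.36, adjusted p = 0.0148). Smurf1, of the same ligase family, fell by 1.84 ± 0.16 in iMac (adjusted p = 0.00119) and by 1.66 ± 0.16 in MCC (adjusted p = 0.00191). Smurf2, its close relative, fell by 1.21 ± 0.21 in iMac (adjusted p = 0.00745, lost without iMac library 2 at 0.0629) and by 1.23 ± 0.21 in MCC (adjusted p = 0.00845). Siah1a fell by 1.06 ± 0.14 in iMac (adjusted p = 0.00347) and by 1.11 ± 0.14 in MCC (adjusted p = 0.00366). Fbxo32, a ligase known from muscle wasting, rose by 1.43 ± 0.24 in iMac (adjusted p = 0.00647) and had a log2 fold change of 0.48 ± 0.23 in MCC (adjusted p = 0.141), which passed without MCC library 1 (0.72, adjusted p = 0.046). The count of called ligases in iMac was 5 without MEF library 2 and 4 without iMac library 2, and in MCC it was 4 without MCC library 2.

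Of 11 tested genes known as targets of Klf2 or Klf4 in endothelium and leukocytes, 3 rose and 7 fell in iMac against MEF, and 4 rose and 4 fell in MCC against MEF, with medians of -2.96 and -1.99. Among those that fell, F3, the tissue factor that starts clotting, had 0.119 and 0.121 CPM in iMac, 22.4 and 0.642 CPM in MCC and 169 and 59.1 CPM in MEF. Its libraries did not overlap between groups, and MCC library 1 stood far above MCC library 2. F3 fell by 9.85 ± 2.18 on the log2 scale in iMac (adjusted p = 0.015), a call lost without either iMac library (adjusted p = 0.0942 and 0.0951). Its log2 fold change of -3.31 ± 1.48 in MCC did not pass (adjusted p = 0.115) except without MCC library 1 (-7.45, adjusted p = 0.00427). Vcam1, an adhesion receptor of endothelium and stroma, fell by 9.44 ± 1.25 in iMac (adjusted p = 0.0035) and by 5.46 ± 0.97 in MCC (adjusted p = 0.00938). Edn1, which encodes a peptide that narrows vessels, had 1 count in the iMac libraries together and was 406-fold lower there (95% counting interval 72.5 to 16065, adjusted p = 0.00651, lost without iMac library 1 at 0.0544). In MCC it fell by 5.26 ± 1.05 (adjusted p = 0.0128).

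Among the targets that rose, Ccr2, the monocyte chemokine receptor, was not counted in either MEF library, which makes it at least 826-fold higher in iMac (adjusted p = 0.00549) and at least 1664-fold higher in MCC (adjusted p = 0.00545). Cd14, the endotoxin co-receptor that is also among the macrophage markers, rose by 7.14 ± 0.27 in iMac (adjusted p = 0.000137) and by 7.10 ± 0.27 in MCC (adjusted p = 0.000155). S1pr1, the receptor that guides lymphocyte exit, had 241 and 227 CPM in iMac, 101 and 92.4 CPM in MCC and 30.7 and 28.3 CPM in MEF. It rose by 2.99 ± 0.10 in iMac (adjusted p = 0.000118) and by 1.71 ± 0.10 in MCC (adjusted p = 0.000516), and between iMac and MCC its difference of 1.28 ± 0.10 passed only without MCC library 2 (1.08, adjusted p = 0.0217). The calls of Ccr2, Cd14, S1pr1 and Vcam1 against MEF held without any single library, and the count of called targets in iMac was 6 without iMac library 1.

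Of 11 TGF-beta genes, 2 rose and 6 fell in iMac against MEF, and 2 rose and 7 fell in MCC against MEF, with medians of -0.33 and -0.65. The 3 ligands, which induce Klf10, moved in different directions. Tgfb3 had 1.4 and 0.422 CPM in iMac, 11.3 and 2.84 CPM in MCC and 249.5 and 52.7 CPM in MEF, and it fell by 7.36 ± 1.33 on the log2 scale in iMac (adjusted p = 0.00823) and by 4.42 ± 1.13 in MCC (adjusted p = 0.0256). Tgfb2 had 0.418 and 0.633 CPM in iMac, 6.55 and 1.15 CPM in MCC and 68.1 and 30.1 CPM in MEF, and it fell by 6.54 ± 1.08 in iMac (adjusted p = 0.00639) and by 3.67 ± 0.91 in MCC (adjusted p = 0.0235). Tgfb1, by contrast, had 278 and 263 CPM in iMac, 173 and 211 CPM in MCC and 38.6 and 39.5 CPM in MEF, a rise of 2.79 ± 0.13 in iMac (adjusted p = 0.000219) and of 2.30 ± 0.13 in MCC (adjusted p = 0.000429). Of the exonic bases of Tgfb3, 12.4% are shared with antisense genes.

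Smad3, which carries the signal of these ligands to the nucleus, fell by 1.55 ± 0.18 in iMac (adjusted p = 0.00245) and by 1.80 ± 0.18 in MCC (adjusted p = 0.00211), and Smad7, which inhibits it, fell by 3.91 ± 0.43 in iMac (adjusted p = 0.00211) and by 1.59 ± 0.39 in MCC (adjusted p = 0.0221). The calls of Tgfb1 and Smad3 held without any single library, as did that of Smad7 in iMac. In iMac the call of Tgfb3 was lost without iMac library 2 (adjusted p = 0.0608) and that of Tgfb2 without either iMac library (0.0563 and 0.0516). In MCC that of Tgfb3 was lost without MEF library 1 or MCC library 2 (0.0917 and 0.0657), that of Tgfb2 without either MEF or either iMac library (0.0506 to 0.0881), and that of Smad7 without MEF library 1, MCC library 2 or either iMac library (0.0552 to 0.0822). The count of called TGF-beta genes in iMac was 4 without iMac library 1 and 3 without iMac library 2, and in MCC it was 5 without MCC library 2.

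Of 8 smooth muscle genes, listed as opposed or driven by Klf4 or Klf5, 0 rose and 7 fell in iMac against MEF. In MCC against MEF 0 of these genes rose and 4 fell. Their median log2 fold changes were -8.27 in iMac (-6.48 with genes at 0 counts set at their bound) and -3.14 in MCC. The contractile genes led. Myh11, the smooth muscle myosin, had 0 and 0.121 CPM in iMac, 1.87 and 0.294 CPM in MCC and 236 and 9.02 CPM in MEF, and it fell by 10.92 ± 2.52 on the log2 scale in iMac (adjusted p = 0.0168) and by 6.81 ± 1.91 in MCC (adjusted p = 0.0334). Acta2, smooth muscle actin, had 2.0 and 2.77 CPM in iMac, 291 and 13.8 CPM in MCC and 5939 and 1002 CPM in MEF. It fell by 10.50 ± 2.15 in iMac (adjusted p = 0.0117), and its log2 fold change of -4.51 ± 1.64 in MCC did not pass (adjusted p = 0.0683). Cnn1, which encodes calponin, fell by 8.89 ± 2.40 in iMac (adjusted p = 0.027) and had -3.16 ± 1.74 in MCC (adjusted p = 0.18). For all 3 genes MEF library 1 was far above MEF library 2, and MCC library 1 above MCC library 2. Smtn, smoothelin, with 16.3% of its exonic bases shared with antisense genes, fell by 3.54 ± 0.18 in iMac (adjusted p = 0.000283) and by 2.53 ± 0.17 in MCC (adjusted p = 0.000799), and both calls held without any single library. The iMac calls of Myh11, Acta2 and Cnn1 were lost without either iMac library (adjusted p = 0.0806 to 0.14), and that of Cnn1 also without MEF library 1 (0.0724). The MCC call of Myh11 was lost without MEF library 1 or without any MCC or iMac library (0.0589 to 0.137). Without MCC library 1, Acta2 (-7.96, adjusted p = 0.0133) and Cnn1 (-7.50, adjusted p = 0.0271) passed in MCC. Myh10, a non-muscle myosin, fell by 7.65 ± 1.31 in iMac (adjusted p = 0.00711) and by 4.19 ± 1.11 in MCC (adjusted p = 0.0281). The iMac call of Myh10 was lost without iMac library 1 or iMac library 2 (adjusted p = 0.0606 and 0.0596), and its MCC call without MEF library 1, MEF library 2, iMac library 1 or iMac library 2 (0.0635 to 0.0881). The count of called genes in iMac was 4 without MEF library 1 and 1 without either iMac library. In MCC it was 1 without MEF library 1 and 2 without MCC library 2, iMac library 1 or iMac library 2.

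Among 9 pluripotency factors, the setting in which Klf4 is used together with Myc, 5 were tested, and 1 rose and 3 fell in each comparison with MEF. Their medians were -6.29 in iMac and -5.19 in MCC, or -4.80 and -4.57 with genes at 0 counts set at their bound. The gene that rose was Myc, by 3.96 ± 0.21 on the log2 scale in iMac (adjusted p = 0.000332) and 3.89 ± 0.21 in MCC (adjusted p = 0.00043). The series title gives Myc as the reprogramming factor, so its rise is no result about this list. Pou5f1, Nanog, Lin28a and Zfp42 had 0 to 16 counts in any library and were not tested. Sox2 had 0 and 2 counts in iMac, 87 and 3 in MCC and 1165 and 2283 in MEF. It was 1518-fold lower in iMac (95% counting interval 419.8 to 12538, adjusted p = 0.00855) and fell by 5.26 ± 1.33 in MCC (adjusted p = 0.0246). These Sox2 calls were lost without either iMac library (adjusted p = 0.0674 and 0.0607 in iMac, 0.0571 and 0.0573 in MCC), and that in MCC also without MEF library 1 (0.0628) or MEF library 2 (0.0993). Tbx3 fell by 7.57 ± 1.20 in iMac (adjusted p = 0.00568) and by 5.19 ± 1.0 in MCC (adjusted p = 0.0117). Both Tbx3 calls held without any single library. Tfcp2l1, a factor of naive pluripotent cells with at most 1.34 CPM, was 31.3-fold lower in iMac (95% counting interval 8.34 to 263, adjusted p = 0.0136) and at least 23.7-fold lower in MCC (adjusted p = 0.01). Its iMac call was lost without MEF library 2 or either iMac library (0.0662 to 0.0917). The count of called factors in iMac was 2 without iMac library 1 or iMac library 2.

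Of 18 immediate early genes, which share with Klf2, Klf4, Klf6 and Klf10 the rapid response to growth factors, 3 rose and 7 fell in iMac against MEF, and 4 rose and 4 fell in MCC against MEF, with medians of -0.92 and 0.20. Among those that fell were members of the AP-1 family. Fosl2 had 30.6 and 28.5 CPM in iMac, 94.6 and 35.6 CPM in MCC and 253 and 132 CPM in MEF. It fell by 2.71 ± 0.56 on the log2 scale in iMac (adjusted p = 0.0123), lost without either iMac library (0.0768 and 0.0822), and its log2 fold change of -1.57 ± 0.54 in MCC (adjusted p = 0.0585) passed without MCC library 1 (-2.43, adjusted p = 0.0122). Fosl1 fell by 5.32 ± 1.09 in iMac (adjusted p = 0.012) and by 3.25 ± 0.95 in MCC (adjusted p = 0.0377). These Fosl1 calls were lost without either iMac library and, in MCC, without either MEF library (0.0781 to 0.141), and 57.2% of its exonic bases are shared with antisense genes. Jun fell by 1.64 ± 0.53 in iMac (adjusted p = 0.0467) and by 1.65 ± 0.53 in MCC (adjusted p = 0.0487), and both calls were lost without MEF library 2 or either iMac library and that in MCC without MCC library 2 (0.0916 to 0.254).

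Fosb had 2.0 and 1.72 CPM in iMac, 28.6 and 39.5 CPM in MCC and 3.01 and 404 CPM in MEF, so that its MEF mean rests on MEF library 2. Its fall of 6.77 ± 2.21 on the log2 scale in iMac (adjusted p = 0.0479) was -0.72 without MEF library 2 (adjusted p = 0.0745), and the call was also lost without any MCC or iMac library (0.0566 to 0.196). In MCC its log2 fold change was -2.58 ± 1.79 (adjusted p = 0.271). It passed in opposite directions without MEF library 1 (-3.56, adjusted p = 0.0027) and without MEF library 2 (3.54, adjusted p = 0.00474). Among the genes that rose, Zfp36, which destabilises inflammatory messages, rose by 1.92 ± 0.32 on the log2 scale in iMac (adjusted p = 0.00662) and by 2.31 ± 0.33 in MCC (adjusted p = 0.005). Atf3 had 224 and 202 CPM in iMac, 107 and 101 CPM in MCC and 5.26 and 24.4 CPM in MEF. It rose by 3.84 ± 0.73 in iMac (adjusted p = 0.00966) and by 2.81 ± 0.70 in MCC (adjusted p = 0.0239), the MCC call being lost without iMac library 1 (adjusted p = 0.0557) or iMac library 2 (0.0559). Fos had 299.7 and 292 CPM in iMac, 374 and 454 CPM in MCC and 24.5 and 378 CPM in MEF, and it passed in neither comparison. Without MEF library 2 it passed in both, with log2 fold changes of 3.57 in iMac (adjusted p = 0.00106) and 4.13 in MCC (adjusted p = 0.000949). Without iMac library 1 or iMac library 2 the count of called genes was 3 in iMac and 4 in MCC, and without MEF library 2 the MCC split was 8 higher and 1 lower.

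Between iMac and MCC, edgeR called 0 genes in each of these lists, with 0 (other Klf genes) to 7 (of 11 TGF-beta genes) at an unadjusted p below 0.05. DESeq2 called 35 genes of the lists and limma-voom 3. Without MCC library 2, edgeR called 16. The lists of genes linked to Klf9 in the circadian clock and to Klf factors in fat cells are given among the other observations.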

How the data were processed

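Messenger RNA of 2 iMac, 2 MCC and 2 MEF libraries was sequenced from total RNA, per the labels' protocols. The deposited values are whole-number counts of reads per gene, deposited by the authors without normalization. The submitters' processing notes name STAR, featureCounts and mm10, and their versions, annotation and strand setting were not stated in any source used here. Totals ran over 34389817 to 39174367 counts in the 6 libraries.

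All 6 libraries were fitted together with group as the only term by edgeR 4.0.16 (R 4.3.3, quasi-likelihood test, TMM scaling, prior count 0.125), after filterByExpr had kept 18613 of 30445 genes and removed 11832. P-values were adjusted by Benjamini-Hochberg over these 18613 genes and called below 0.05. The fit has 3 residual degrees of freedom. The standard error is the size of the log2 fold change divided by the square root of F. A group with 0 counts was set at 3 counts over the group, and 1 to 3 counts were given as a ratio with a 95% counting interval, which covers counting error only. TPM were computed from the counts and the union of exons in GENCODE M21, in which 29529 symbols matched. Figures and tables used Python 3.11.15, numpy 2.4.6, pandas 2.3.3, scipy 1.17.1 and matplotlib 3.10.9.

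The alternatives were DESeq2 1.42.0, limma-voom (limma 3.58.1), median-ratio size factors, library totals, no filter, a filter of 5 CPM in 2 libraries, only the groups compared, the replicate number as a block, and leaving out each library. When a library was left out, the lone library of its group was assumed to vary like the other groups. For the gene lists, counts of called genes without a library are given where they changed most, and smaller changes are not all given. The code was tested on simulated data. The members and gene lists were chosen with earlier results of these data known. Up to 4 genes of each list are named in each comparison with MEF, taking called genes by the size of their fold change where the higher group averaged 5 CPM or more, then the most highly expressed others. The genes most like a member are the 2 nearest among tested genes with a highest group mean of at least 20 CPM, without predicted genes. S1pr1 and Fos are given from the genes selected in the same way between iMac and MCC, where none passed. A further gene that this rule selects is not reported here.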

Additional observations from a re-analysis of the deposited data

How the results depend on the processing

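Klf4, Klf9 and Klf10 kept their direction and their call against MEF under all 8 other settings and without any single library. Under DESeq2, Klf6 passed in iMac against MEF (-0.26), Klf5 (-3.18) and Klf3 (-0.30) passed in MCC against MEF, and Klf2 (-0.95), Klf4 (-0.68), Klf5 (-8.68) and Klf9 (-0.71) passed in iMac against MCC. Limma-voom called Klf5 in MCC against MEF (-4.09). The Klf6 call in MCC against MEF was lost under library totals (-0.34), without the filter (-0.37), with the replicate block (-0.39) and with only the groups compared (-0.28). The Klf13 call in MCC was lost with only the groups compared (0.62). In iMac against MCC, all genes called numbered 4, against 2572 by DESeq2, 146 by limma-voom, 89 without the filter, 0 with the replicate block and 1364 with only the groups compared. Members called were 4 by DESeq2 and 1 with only the groups compared (Klf9, -0.73), and list genes called were 35 by DESeq2, 3 by limma-voom, 3 without the filter and 23 with only the groups compared. Klf3 in iMac against MCC turned to -0.08 under library totals, which also moved the median of all genes to -0.156. With the longest transcript, Klf6 held 38.1%, 33.5% and 33.6% of the family in iMac, MCC and MEF, and 39.2%, 34.5% and 33.4% with all tested Klf genes in the sum. The cause of these changes was not tested.

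Replicate numbers only name the libraries: deviations of same-numbered libraries correlated at -0.00688 (iMac and MEF), 0.131 (MCC and MEF) and 0.00226 (iMac and MCC). The replicate block gave 9908, 9022 and 0 called genes in iMac against MEF, MCC against MEF and iMac against MCC. It brought Klf2 past the threshold in MCC against MEF (0.78) and took Klf13 out (0.50).

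Leaving out each library in turn gave these ranges. In iMac against MEF, genes called ran over 5173 to 10695, members 3 to 6, list genes 39 to 81, Klf2 -0.40 to 0.11 (0.11 without MEF library 2), Klf5 -12.6 to -12.33, Klf7 -1.12 to -0.99 and Klf13 0.63 to 0.71. In MCC against MEF, members ran over 3 to 7, list genes 45 to 66, Klf2 0.54 to 1.13, Klf5 -6.04 to -2.10, Klf6 -0.42 to -0.29, Klf7 -1.33 to -0.64 and Klf13 0.42 to 0.70. In iMac against MCC, genes called ran over 0 to 1202, members 0 to 1, list genes 0 to 16, Klf5 -10.36 to -6.43, Klf3 -0.06 to 0.11 (-0.06 without MCC library 2 and -0.02 without MEF library 2), Klf7 -0.43 to 0.26, Klf10 -0.09 to 0.27 and Klf13 -0.05 to 0.23, the turned values of the last 3 being those without MCC library 1. Klf5 had 0 counts in both iMac libraries, so its iMac values here, and that of DESeq2, come from the fit. The counts give only bounds, at least 439.9-fold against MEF and at least 51.0-fold against MCC with all libraries. With 2 libraries a group, small changes are measured with few degrees of freedom.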

Other observations

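Of 14 tested genes of the circadian clock and the glucocorticoid response, in which Klf9 takes part, 1 rose and 6 fell in each comparison with MEF, with median log2 fold changes of -0.99 in iMac and -0.70 in MCC. Bhlhe40, a repressor of the clock, had 9.59 and 7.96 CPM in iMac, 15.2 and 10.4 CPM in MCC and 66.1 and 70.0 CPM in MEF. It fell by 2.96 ± 0.23 on the log2 scale in iMac (edgeR, adjusted p = 0.000868) and by 2.41 ± 0.22 in MCC (adjusted p = 0.00174). Nr1d1, another clock repressor, fell by 2.07 ± 0.17 in iMac (adjusted p = 0.00104) and by 1.39 ± 0.17 in MCC (adjusted p = 0.00337), with 8.55% of its exonic bases shared with antisense genes. Fkbp5, a glucocorticoid-induced chaperone, had 23.4 and 27.3 CPM in iMac, 58.0 and 69.1 CPM in MCC and 81.9 and 241 CPM in MEF. It fell by 2.67 ± 0.53 in iMac (adjusted p = 0.0106), lost without either iMac library (0.074 and 0.066), and its -1.35 ± 0.50 in MCC (adjusted p = 0.0726) passed without MEF library 1 (-1.92, adjusted p = 0.00435). Per2 fell by 2.08 ± 0.43 in iMac (adjusted p = 0.0119) and by 1.67 ± 0.42 in MCC (adjusted p = 0.0241), lost without MEF library 2 or either iMac library and, in MCC, without MCC library 2 (0.0529 to 0.126). Arntl, the activator of the clock, fell by 1.09 ± 0.23 in iMac (adjusted p = 0.0133, lost without either iMac library at 0.0727 and 0.0889) and by 1.82 ± 0.24 in MCC (adjusted p = 0.00402). Bhlhe41, the gene of this list that rose, had 33.9 and 30.9 CPM in iMac, 31.3 and 17.9 CPM in MCC and 6.88 and 9.82 CPM in MEF. The rise passed in iMac (adjusted p = 0.00689) and measured 1.56 ± 0.33 on the log2 scale in MCC (adjusted p = 0.0149, lost without MEF library 1 at 0.0655), with 19.0% of its exonic bases shared with antisense genes. The count of called genes in iMac was 4 without iMac library 1 or iMac library 2.

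Of 8 genes of fat cell formation, which several Klf factors control, 4 rose and 2 fell in iMac against MEF, and 4 rose and 1 fell in MCC against MEF, with medians of 1.10 and 1.34. Adipoq, which encodes the fat cell hormone adiponectin, had 0.149 and 0 CPM in iMac, 0.208 and 0.134 CPM in MCC and 1.33 and 10.7 CPM in MEF. It fell by 6.26 ± 1.53 on the log2 scale in iMac (adjusted p = 0.0199) and by 5.10 ± 1.38 in MCC (adjusted p = 0.0297). The iMac call was lost without MEF library 2 or either iMac library (0.0594 to 0.0928) and the MCC call without MEF library 2 or either MCC library (0.0743 to 0.11). Lpl, which frees fatty acids from lipoproteins and is also made by macrophages, had 3128 and 2921 CPM in iMac, 1266 and 1464 CPM in MCC and 46.5 and 92.6 CPM in MEF. It rose by 5.44 ± 0.40 on the log2 scale in iMac (adjusted p = 0.00076) and by 4.29 ± 0.38 in MCC (adjusted p = 0.00154). Plin2, a coat protein of lipid droplets, rose by 3.86 ± 0.12 in iMac (adjusted p = 8.7e-05) and by 2.65 ± 0.11 in MCC (adjusted p = 0.000201). Cebpa, a transcription factor of fat cells and of myeloid cells, rose by 2.72 ± 0.31 in iMac (adjusted p = 0.00228) and by 2.79 ± 0.31 in MCC (adjusted p = 0.00263). The calls of Lpl, Plin2 and Cebpa against MEF held without any single library.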
